A study of Mus musculus with 60 samples.

Results

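The genes described here encode subunits of the oxidative phosphorylation machinery; their RNA was measured in mouse embryonic stem cells of the R1 line exposed to 19 drugs. They were chosen by gene symbol alone. A probe set was taken when its single symbol began with Nduf followed by a, b, c, s or v and a digit, was Sdha to Sdhd, or began with Uqcr, with Cox and a digit from 4 to 8, or with Atp5. For each gene the probe set with the highest mean over all arrays was used. The rule found 105 probe sets of 81 genes, among 21789 probe sets of 19938 genes with a single symbol. Of the 81 genes, 35 carry complex I symbols, 4 complex II, 8 complex III, 17 complex IV and 17 complex V. Among the complex I symbols, Ndufa4 and Ndufa4l2, are known to belong with complex IV and are counted under complex I by symbol. Cox7c and Ndufb4 were measured only by probe sets with several symbols and are not among the 81. Subunits encoded by mitochondrial DNA lie outside the rule.

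R1 is an established line of mouse embryonic stem cells. Per the labels it was cultured on feeder cells, freed of feeders and treated for 6 h while attached and undifferentiated. The 60 arrays form 20 groups of 3, and every group received 0.1% DMSO, the solvent, which alone made up the control group. The dose of a drug was the lowest of its IC10 in a viability assay, its solubility limit and 1 mM. The 10 drugs labelled teratogens were (-)-d-penicillamine, Dimethadione, Fluconazole, Topiramate and VPA (valproic acid) at 1 mM, (+/-)-Thalidomide at 0.35 mM, Dexamethazone (the label's spelling of dexamethasone) at 0.1 mM, All trans retinoic acid at 0.024 mM, Methotrexate at 0.028 µM and 5-azacytidine. The dose of 5-azacytidine was 0.23 µM in the titles and 23 µM in another label field. The 9 drugs labelled non-teratogens were Chlorthalidone, Hydrochlorothiazide, Paracetamol and Sulfasalazine at 1 mM, Glybenclamide at 0.37 mM, Metoclopramide at 0.17 mM, Ondansetron at 0.054 mM, Loratadine at 0.043 mM and Clozapine at 0.028 mM. The labels call the arrays triplicates without saying that they came from separate cultures, so p-values measure the spread between arrays. Each array holds RNA of a whole culture, in which fewer cells of a type and less RNA per cell cannot be told apart.

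Oxidative phosphorylation makes most of the ATP of respiring cells. Complex I takes electrons from NADH and complex II takes them from succinate; complex III passes them through cytochrome c to complex IV, which reduces oxygen, and complex V uses the resulting proton gradient to make ATP. Pluripotent stem cells are known to use glycolysis too. How far these cultures relied on either route was not measured. Promoters of the nuclear genes of the respiratory chain are known for sites of NRF1, of the ETS factor GABPA and of YY1.

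Promoters were taken from RefSeq (build GRCm38.p6), as windows of 300 bases that run from 250 before to 50 after an annotated start. Of the 81 genes, 66 matched the promoter table by symbol, with 71 promoters. Both strands were searched for GCGCA followed by any base and GCGC (NRF1), CCGGAAG (an ETS motif) and ATGGCGG (part of the YY1 motif), and no hits of different motifs overlapped in these 71 windows. The NRF1 motif was in 17 of the 71 (23.9%), against 4.6% of all 32851 promoters in the table. The ETS motif was in 17 (23.9%, against 8.86%) and the YY1 motif in 11 (15.5%, against 4.05%). At least 1 of the 3 motifs was in 38 of the 71 windows (53.5%), against 15.5% of all promoters. These shares describe letters, not bound sites. Of the 12 matched genes called lower with dexamethasone (given further on), 5 had a promoter with the NRF1 motif, 2 with the ETS motif and 1 with the YY1 motif. Of the 47 matched genes called in no drug, 10, 12 and 7 did, and the differences were not tested. The following 150 bases before the start, 1 or 2 genes per complex, show what these promoters look like; they were picked from the windows with a motif, and capitals mark the NRF1 or ETS motif on either strand.
Ndufs3 (chr2:90904722-90904871, minus strand): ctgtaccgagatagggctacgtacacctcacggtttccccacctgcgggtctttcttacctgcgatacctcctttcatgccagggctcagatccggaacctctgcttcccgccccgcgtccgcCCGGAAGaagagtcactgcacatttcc
Ndufa11 (chr17:56717612-56717761, plus strand): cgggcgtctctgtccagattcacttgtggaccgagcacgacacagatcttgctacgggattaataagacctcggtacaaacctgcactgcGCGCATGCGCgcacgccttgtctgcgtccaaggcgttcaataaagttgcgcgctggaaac
Sdha (chr13:74350241-74350390, minus strand): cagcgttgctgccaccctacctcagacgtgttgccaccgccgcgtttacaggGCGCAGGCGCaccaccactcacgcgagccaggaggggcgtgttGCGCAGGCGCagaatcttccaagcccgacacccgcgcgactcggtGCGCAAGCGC
Uqcrh (chr4:116075071-116075220, minus strand): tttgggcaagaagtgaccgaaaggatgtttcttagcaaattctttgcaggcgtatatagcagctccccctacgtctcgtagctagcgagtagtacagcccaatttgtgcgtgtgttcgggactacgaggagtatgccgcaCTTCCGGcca
Cox6a1 (chr5:115348959-115349108, minus strand): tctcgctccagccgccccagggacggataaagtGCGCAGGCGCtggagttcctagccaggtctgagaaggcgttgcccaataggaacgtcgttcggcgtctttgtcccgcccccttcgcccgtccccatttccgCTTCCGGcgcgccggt
Atp5e (chr2:174464102-174464251, minus strand): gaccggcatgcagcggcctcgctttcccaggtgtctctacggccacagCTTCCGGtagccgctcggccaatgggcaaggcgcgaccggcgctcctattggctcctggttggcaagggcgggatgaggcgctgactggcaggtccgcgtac
The stretches of Ndufs3, Uqcrh and Atp5e each hold 1 ETS motif, that of Ndufa11 holds 1 NRF1 motif, that of Cox6a1 holds 1 of each, and that of Sdha holds 3 NRF1 motifs.

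The stem cell identity of the cultures was visible on the arrays. Pou5f1, a core pluripotency factor, read 12.88, 12.87 and 12.88 on the DMSO arrays (all levels are log2 signals), and Dppa5a, a stem cell marker, read 13.56, 13.59 and 13.56. The lowest of the stem cell markers checked was Dppa3 at 9.06, 8.95 and 9.07. Among 12 fibroblast markers checked for remaining feeder cells, Lum was lowest at 4.41, 4.56 and 4.40, and Col1a1 read 10.08, 10.14 and 10.04. Fn1 was highest at 12.91, 12.81 and 12.95, so the levels of the 2 lists overlapped. Array medians lay between 7.58 and 7.79, and interquartile ranges between 2.97 and 3.31. The 3 narrowest arrays were hydrochlorothiazide replicates 1 (2.97) and 2 (2.99) and dexamethasone replicate 3 (3), and the next lowest value was 3.05. No arrays were identical.

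The subunit genes moved little in any of the 19 drugs. Of 1539 log2 fold changes against DMSO (81 genes in 19 drugs), 28 were called, meaning a limma p under 0.05 after Benjamini-Hochberg adjustment over all 21789 probe sets of a comparison. Of these, 8 rose and 20 fell. None of the 1539 exceeded 1.5-fold, 25 exceeded 1.2-fold (1.62%, against 4.3% over all probe sets), and the largest was 0.42 on the log2 scale. Beyond 1.2-fold were 6 of the 81 genes with hydrochlorothiazide, against 4.53% of all probe sets, and 7 with dexamethasone, against 5.08%. The precision was enough to bound most of them: 1536 of the 1539 unadjusted 95% intervals lay wholly within 1.5-fold of DMSO. The exceptions were Cox6b2 with loratadine (0.26 to 0.59), Ndufb2 with dexamethasone (-0.61 to -0.20) and Ndufs5 with penicillamine (-0.65 to -0.09, adjusted p = 0.473). Calls occurred in 6 drugs and in 23 genes, and 58 genes were called in none. Complex I held 14 of the 23 genes, complex III 1, complex IV 5, complex V 3 and complex II 0.

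**Figure D1:**
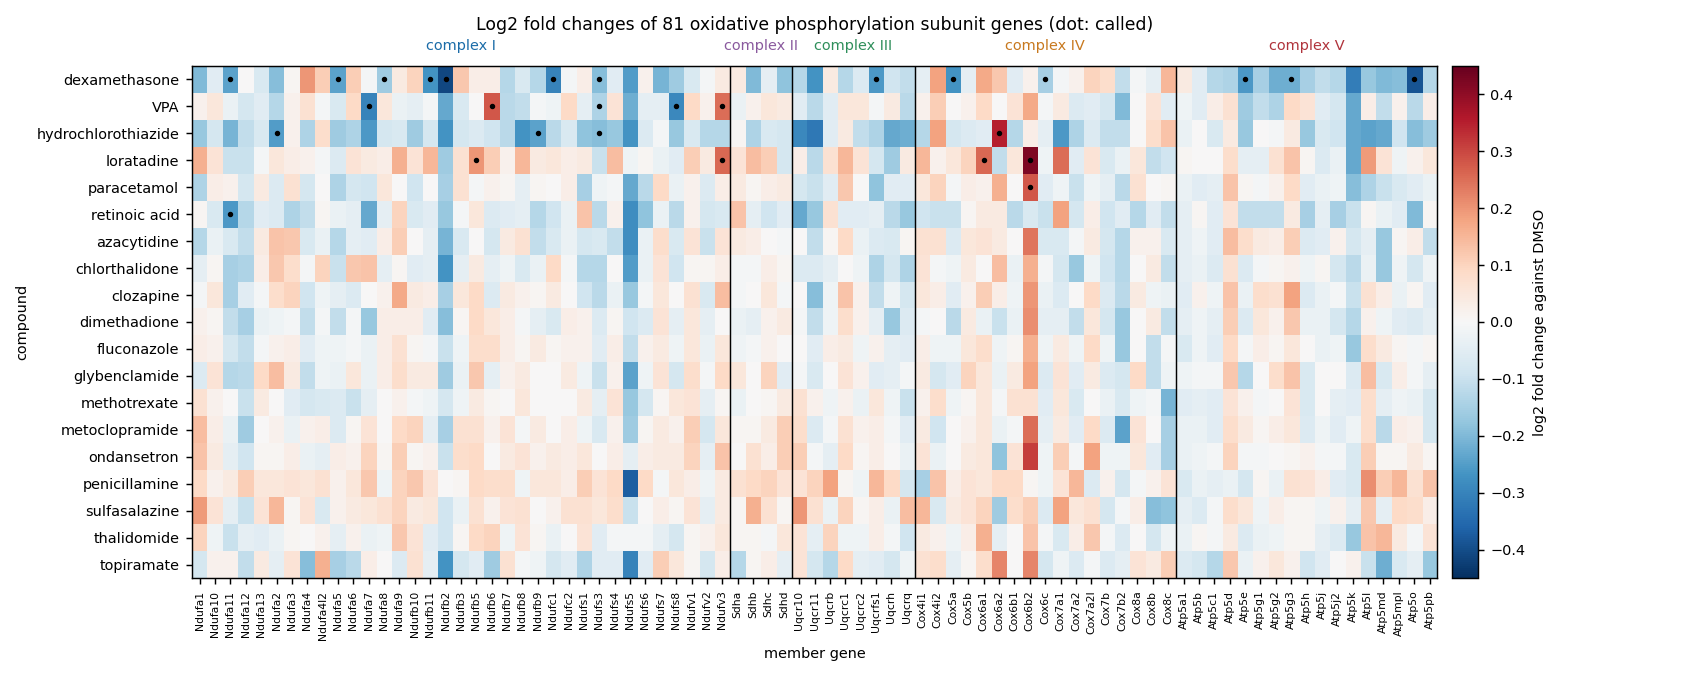
Log2 fold change against DMSO of each of the 81 genes (columns, grouped by complex) in each of the 19 drugs (rows, those with most called genes on top); colour gives the size and direction, and a dot marks a called value. The 28 dots lie in the 6 top rows, 13 of them with dexamethasone, and no column of complex II has one.

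The drugs with the widest response did not call many subunit genes. VPA, an antiepileptic that also inhibits histone deacetylases, called 26.5% of all probe sets and 5 of the 81 genes (2 rose, against 15.5% of all, and 3 fell, against 11%). Loratadine, an antihistamine, called 19.2% of all probe sets and 4 of the 81 (4 rose, against 10.9% of all). All trans retinoic acid called 9.82% of all and 1 of the 81 (it fell, against 3.92% of all), and paracetamol 8.76% and 1 of the 81 (it rose, against 4.61%). Glybenclamide called 9.54% of all and sulfasalazine 8.9%, each with 0 of the 81. At an unadjusted limma p under 0.05 there were 4 and 7 of the 81 genes, against 24.3% and 28% of all probe sets. The shares went the other way with dexamethasone, a glucocorticoid, where 6.25% of all probe sets and 13 of the 81 genes were called (16%; 13 fell, against 4.74% of all), and with hydrochlorothiazide, a diuretic, where 2.17% of all and 4 of the 81 were called (1 rose, against 0.303%, and 3 fell, against 1.87%). Bright probe sets were called more often: among the probe sets brighter than the median one, which held 76 of the 81 genes, the share was 40.7% with VPA, 27.5% with loratadine, 9.39% with dexamethasone and 3.48% with hydrochlorothiazide.

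**Figure D2:**
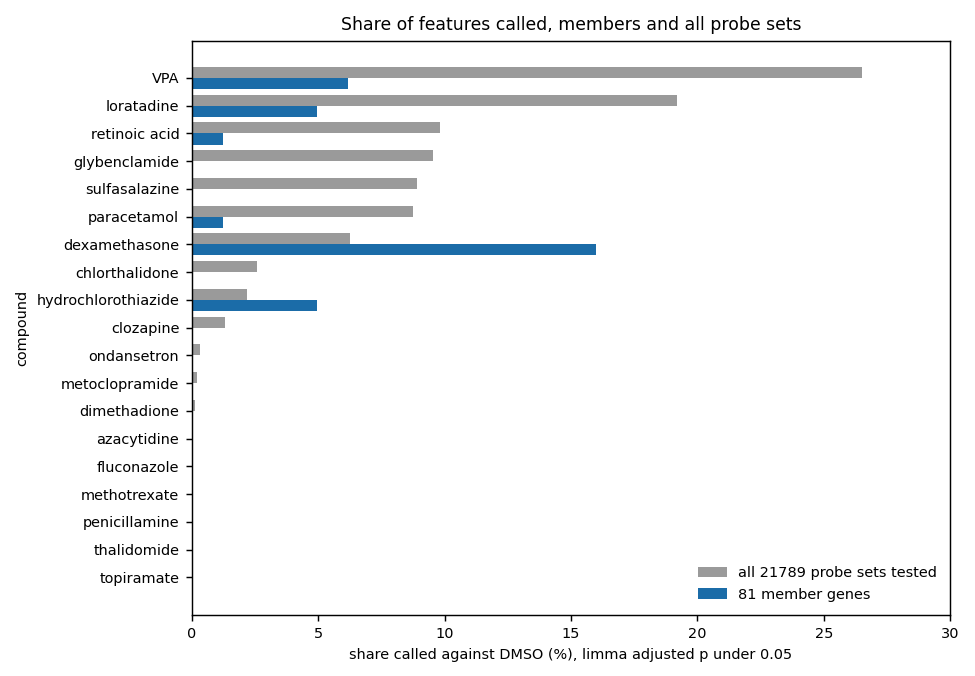
Share of features called against DMSO (x axis, %, limma adjusted p under 0.05) for all 21789 probe sets (grey) and the 81 subunit genes (blue), per drug (y axis). The grey bar is longer with VPA (26.5% against 6.17%) and loratadine (19.2% against 4.94%), and the blue bar is longer with dexamethasone (16% against 6.25%) and hydrochlorothiazide (4.94% against 2.17%).

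In the other 11 drugs 0 of the 81 genes were called by limma. The share of all probe sets called was 2.58% with chlorthalidone, 1.31% with clozapine, 0.33% with ondansetron, 0.197% with metoclopramide and 0.119% with dimethadione, and 6, 7, 3, 4 and 4 of the 81 genes were under an unadjusted p of 0.05, against 12.2%, 9.72%, 14.5%, 12.6% and 10.4% of all probe sets. It was 0% with penicillamine, thalidomide, 5-azacytidine, fluconazole, topiramate and methotrexate, where 6, 1, 6, 0, 12 and 1 genes were under that p, against 8.49%, 7.61%, 8.06%, 6.71%, 11.8% and 6.59% of all. Ndufs5, an accessory subunit of complex I, had the lowest value with penicillamine: it read 7.59, 7.80 and 7.98 on the DMSO arrays and 7.62, 6.90 and 7.75 with the drug, so that 1 array, replicate 2, lay far below the rest. That array stood apart: it had the highest array median (7.79), and its 81 genes and its fibroblast markers were above the DMSO mean by 0.16 (median) and 0.21 (mean).

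Complex I, which has 35 of the 81 genes, had 14 of the 23 genes that were called in at least 1 drug. With VPA the changes went both ways among its parts. Ndufs8, a core subunit that carries iron-sulfur clusters in the arm that reduces ubiquinone, read 11.05, 10.96 and 11.08 with DMSO and 10.73, 10.74 and 10.75 with VPA. The groups did not overlap, and the gene fell by 0.29 ± 0.0709 (SE of the fit, n = 3 arrays per group; limma adjusted p = 0.00126). Ndufs3, another core subunit of that arm, fell by 0.14 ± 0.0516 (adjusted p = 0.0362). All 4 measured genes of the arm (Ndufs3, Ndufs7, Ndufs8, Ndufa5) were below DMSO with VPA, with values from -0.29 to -0.04. All 4 were also below the same DMSO arrays, by group means, with thalidomide, retinoic acid, hydrochlorothiazide, dexamethasone and loratadine. With VPA, Ndufa7, an accessory subunit of the arm that oxidises NADH, fell by 0.30 ± 0.104 (adjusted p = 0.0275). Ndufb6, an accessory subunit of the membrane arm, read 12.29, 12.20 and 12.30 with DMSO and 12.57, 12.51 and 12.54 with VPA, a rise of 0.28 ± 0.0658 (adjusted p = 0.000848) with no overlap. Ndufv3, an accessory subunit at the NADH end, rose by 0.25 ± 0.0752 (adjusted p = 0.00832). The median over the 81 genes was -0.01, as over all probe sets. The count of 5 became 3 without DMSO replicate 3, without VPA replicate 1 or without VPA replicate 3, and 12 (3 rose, 9 fell) when the spread of an array (its interquartile range) entered as a covariate. The share of all probe sets called in these refits is not given here. The mean of 10 stem cell markers differed from DMSO by -0.23, -0.21 and -0.23 on the VPA arrays, where 4 of the 10 fell (against 11% of all probe sets), and its part in these values was not tested. Paracetamol arrays had a like difference, given with Cox6b2.

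Ndufv3 and Ndufb5 were the complex I genes that rose with loratadine. Ndufv3 read 9.48, 9.46 and 9.49 with DMSO and 9.76, 9.74 and 9.71 with loratadine, a rise of 0.26 ± 0.0752 (adjusted p = 0.0108). With VPA it read 9.74, 9.74 and 9.71, so that both drugs lay above DMSO without overlap; the comparisons share the DMSO arrays. Ndufb5, an accessory subunit of the membrane arm, rose by 0.20 ± 0.0559 (adjusted p = 0.00839) from 11.31, 11.27 and 11.26 to 11.48, 11.46 and 11.49.

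Dexamethasone called 7 complex I genes, all lower. Ndufb2, an accessory subunit of the membrane arm, read 8.37, 8.51 and 8.44 with DMSO and 8.26, 8.22 and 7.61 with dexamethasone. It fell by 0.41 ± 0.101 (adjusted p = 0.0123), and replicate 3 was far below the other 2 arrays. Ndufc1, also of the membrane arm, read 10.81, 10.85 and 10.85 with DMSO and 10.61, 10.75 and 10.23 with the drug and fell by 0.30 ± 0.083 (adjusted p = 0.023). The other 5 were Ndufb11, Ndufa8 and Ndufa11 of the membrane arm and Ndufs3 and Ndufa5 of the ubiquinone arm, with falls from 0.16 (Ndufa8) to 0.27 (Ndufb11). The other probe set of Ndufb11 gave -0.08 (adjusted p = 0.526), and that of Ndufc1 gave -0.58 (adjusted p = 0.028). Replicate 3 was the lowest dexamethasone array for 5 of the 7, and replicate 1 for Ndufa8 and Ndufa5. Ndufa5 read 8.18, 8.40 and 8.30 against 8.61, 8.43 and 8.56 with DMSO. None of the 10 genes of the NADH-oxidising arm was called, and their median was 0.00. With hydrochlorothiazide, 69 of the 81 genes lay below DMSO (median -0.11, against 0.01 over all probe sets). These were 33 of the 35 complex I genes (median -0.13), 3 of 4 in complex II, 7 of 8 in III, 11 of 17 in IV and 15 of 17 in V. Of the complex I genes, 3 were called. Ndufb9, a membrane arm subunit, read 11.26, 11.26 and 11.25 with DMSO and 10.90, 10.90 and 11.25 with the drug (fall of 0.24, adjusted p = 0.0307). Ndufa2 of the NADH arm fell by 0.25 ± 0.07 (adjusted p = 0.0472) and Ndufs3 by 0.19 ± 0.0516 (adjusted p = 0.0343).

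Ndufs3 was called in 3 drugs, more than any other of the 81 genes. It read 11.34, 11.41 and 11.43 with DMSO, 11.27, 11.21 and 11.28 with VPA, 11.28, 11.25 and 11.08 with dexamethasone, and 11.15, 11.12 and 11.33 with hydrochlorothiazide. All VPA, dexamethasone and hydrochlorothiazide arrays lay below the lowest DMSO array, and the 3 comparisons share those DMSO arrays. The VPA call was lost in 8 of the 12 alternatives, among them the mean of the other 18 drugs as reference (-0.07, adjusted p = 0.151) and leaving out DMSO replicate 2 or 3 or any 1 of the VPA arrays. A second probe set of the gene, read on the same arrays, gave -0.18 (adjusted p = 0.00984), -0.21 (0.0166) and -0.20 (0.0343) in the same order of drugs. Ndufa11, a membrane arm subunit, was called with dexamethasone (-0.24 ± 0.0725, adjusted p = 0.0344) and retinoic acid (-0.26 ± 0.0725, adjusted p = 0.0141). It read 11.20, 11.23 and 11.16 with DMSO and 11.09, 10.73 and 11.00 with retinoic acid. The retinoic acid call was absent without DMSO replicate 2 or without retinoic acid replicate 2. Its other probe set gave -0.16 with retinoic acid (adjusted p = 0.0572) and -0.10 with dexamethasone (adjusted p = 0.292).

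**Figure D3:**
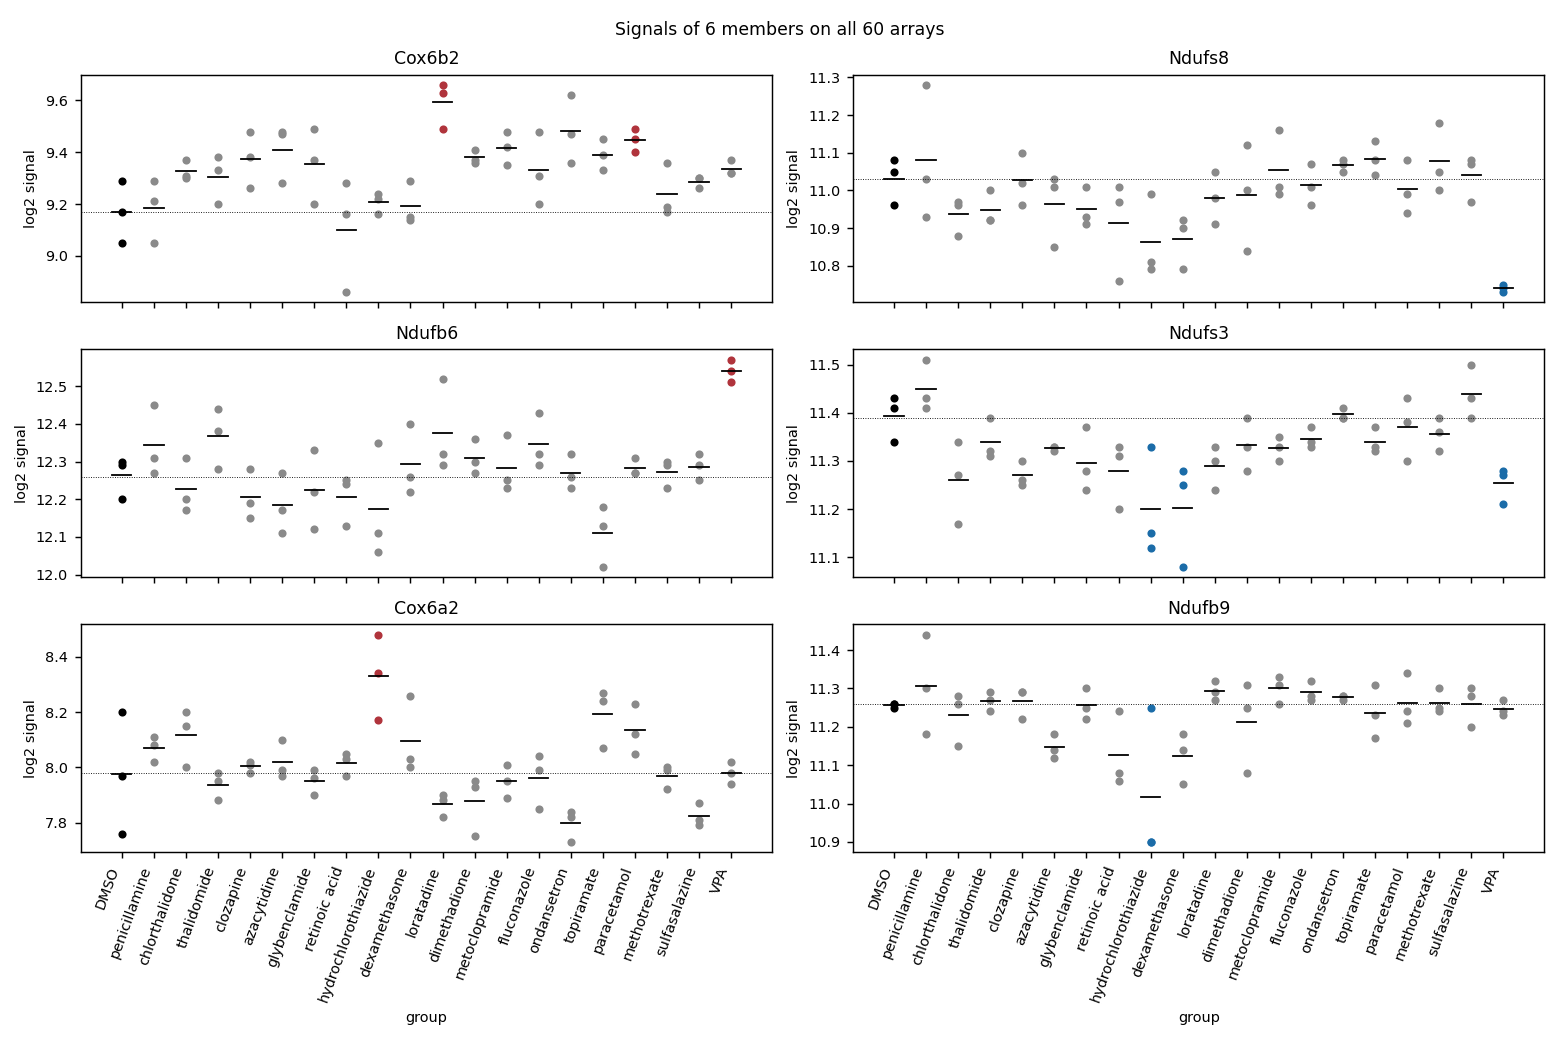
Log2 signal (y axis) of 6 genes on all 60 arrays, by group (x axis); points are arrays, bars are group means, the dotted line is the DMSO mean, and red and blue mark groups called higher and lower than DMSO. The VPA arrays of Ndufs8 (10.73 to 10.75) and Ndufb6 (12.51 to 12.57) lie apart from DMSO, while hydrochlorothiazide replicate 3 of Ndufb9 (11.25) lies at the DMSO level.

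Complex II, succinate dehydrogenase, which also works in the tricarboxylic acid cycle, had no call in any drug. Its values ranged from -0.13 to 0.13 for Sdha, the flavoprotein, from -0.20 to 0.16 for Sdhb, the iron-sulfur subunit, from -0.09 to 0.11 for Sdhc and from -0.18 to 0.11 for Sdhd, the membrane anchors. The smallest limma adjusted p was 0.077, for Sdhb with dexamethasone: it read 10.40, 10.56 and 10.47 with DMSO and 10.52, 10.31 and 10.01 with the drug, and the groups overlapped. With VPA the 4 genes gave -0.03 ± 0.0598, 0.02 ± 0.07, 0.05 ± 0.063 and 0.04 ± 0.0795 for Sdha, Sdhb, Sdhc and Sdhd.

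Complex III had a single call, Uqcrfs1 with dexamethasone. The gene encodes the Rieske iron-sulfur protein, which takes electrons from ubiquinol. It read 9.73, 9.72 and 9.82 with DMSO and 9.58, 9.64 and 9.26 with dexamethasone and fell by 0.26 ± 0.0662 (adjusted p = 0.0143) without overlap. The largest change of the complex was in Uqcr11 with hydrochlorothiazide, -0.32 ± 0.102 (adjusted p = 0.0762). Uqcrc2, a core protein, stayed between -0.11 and 0.06 over the 19 drugs.

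Complex IV held the largest rise of the 81 genes, in an isoform known from testis. Cox6b2 read 9.17, 9.05 and 9.29 with DMSO and 9.49, 9.66 and 9.63 with loratadine. It rose by 0.42 ± 0.0823 (adjusted p = 0.000134), with every loratadine array above every DMSO array. With paracetamol it read 9.45, 9.40 and 9.49 and rose by 0.28 (adjusted p = 0.0231), a call absent without DMSO replicate 1 or 2 or without paracetamol replicate 1 or 3. The stem cell marker mean was -0.23 relative to DMSO on each paracetamol array, where 7 of the 10 markers fell (against 4.15% of all probe sets), and its part in this value was not tested. With ondansetron it read 9.36, 9.62 and 9.47, a difference of 0.31 that was not called (adjusted p = 0.0679). Over the 19 drugs it ranged from -0.07 to 0.42, all against the same 3 DMSO arrays. In most drugs Cox6b2 had the highest value of the 81 genes. Its mean was 9.29 over teratogens and 9.39 over non-teratogens, so its DMSO level was low beside most drugs. With the mean of the other 18 drugs as reference, its loratadine call was kept and its paracetamol call was absent. Cox6a1, the widely expressed isoform of another subunit, rose with loratadine by 0.26 ± 0.0736 (adjusted p = 0.00797), from 11.19, 11.20 and 11.16 to 11.49, 11.42 and 11.43. Its heart and muscle counterpart Cox6a2 rose with hydrochlorothiazide by 0.35 ± 0.0756 (adjusted p = 0.00956). It read 7.97, 8.20 and 7.76 with DMSO and 8.48, 8.34 and 8.17 with the drug, and the groups overlapped. Its probe set was among those removed by the filter on dim probe sets. The call was absent with the array interquartile range as covariate. It was also absent without hydrochlorothiazide replicate 1 or 2 or without DMSO replicate 3.

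The other isoforms known from special tissues had no call. Their values ranged from -0.10 to 0.18 for Cox4i2 (lung), -0.26 to 0.25 for Cox7a1 (heart and muscle), -0.24 to -0.01 for Cox7b2 (testis), -0.19 to 0.08 for Cox8b (heart and muscle), -0.21 to 0.15 for Cox8c (testis) and -0.07 to 0.16 for Ndufa4l2, a gene known to be induced by low oxygen. With dexamethasone, Cox5a and Cox6c, structural subunits of the complex, were called. Cox5a read 11.54, 11.44 and 11.59 with DMSO and 11.44, 11.50 and 10.83 with the drug, so that its fall of 0.27 (adjusted p = 0.0354) lay mostly in replicate 3 and the groups overlapped. Cox6c fell by 0.15 ± 0.0421 (adjusted p = 0.0228), and its other probe set gave -0.01 (adjusted p = 0.891).

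In complex V, 3 of the 17 genes were called, each with dexamethasone. Atp5o, the subunit that ties the stalk to the catalytic head, read 10.78, 10.74 and 10.75 with DMSO and 10.49, 10.63 and 9.99 with dexamethasone. It fell by 0.39 ± 0.0979 (adjusted p = 0.0146), and all 3 arrays lay below DMSO. Atp5e, the epsilon subunit of the rotor, fell by 0.26 ± 0.0789 (adjusted p = 0.0416), from 9.11, 9.14 and 9.14 to 8.86, 9.04 and 8.72. Atp5g3, which encodes the ring subunit, fell by 0.22 ± 0.0639 (adjusted p = 0.0316), with overlap. Both large subunits of the catalytic head stayed close to DMSO: over the 19 drugs Atp5b ranged from -0.08 to 0.02 and Atp5a1 from -0.07 to 0.04.

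The falls with dexamethasone and hydrochlorothiazide came with properties of single arrays. The median of the 81 genes, as a difference from the DMSO mean, was -0.06, -0.06 and -0.13 on the 3 dexamethasone arrays and -0.16, -0.15 and -0.01 on the hydrochlorothiazide arrays. The most negative of these belong to the 3 arrays with the narrowest interquartile range. Dexamethasone replicate 3 is also 1 of 8 arrays with a letter b in the title, whose meaning the labels do not give. Among the other drugs, retinoic acid replicate 2 had a median of -0.12 at a range of 3.22. Topiramate replicate 3 had a median of -0.03 at the next narrowest range, 3.05. With retinoic acid 62 of the 81 genes lay below DMSO (median -0.05, against -0.03 over all probe sets). With the interquartile range as a covariate, the counts of called genes went from 13 to 0 with dexamethasone and from 4 to 0 with hydrochlorothiazide. The medians of the 81 genes went from -0.07 to -0.02 and from -0.11 to -0.06. Without dexamethasone replicate 3 the count was 1 (Ndufa5), without replicate 2 it was 27, without DMSO replicate 1 it was 3 and without DMSO replicate 3 it was 0. For hydrochlorothiazide the count was 0 without its replicate 1, its replicate 2 or DMSO replicate 3, 1 without DMSO replicate 1, 9 without DMSO replicate 2 and 29 without its replicate 3. In the main fit 6.25% of all probe sets were called with dexamethasone and 2.17% with hydrochlorothiazide. The share in these refits is not given here, so the counts do not separate the subunit genes from the other probe sets. Over the probe sets brighter than the median one, the median change was -0.06 with dexamethasone and -0.06 with hydrochlorothiazide. The mean of the 12 fibroblast markers differed from DMSO by -0.01, 0.05 and -0.08 on the dexamethasone arrays and by 0.03, -0.03 and -0.03 on the hydrochlorothiazide arrays. The mean of the 10 stem cell markers differed by -0.07, -0.04 and -0.13 on the dexamethasone arrays, where 2 of the 10 fell (against 4.74% of all probe sets), and by -0.05, -0.11 and 0.01 on the hydrochlorothiazide arrays, where 0 were called. The part of the array range and of the markers in these falls was not tested beyond these values.

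**Figure D4:**
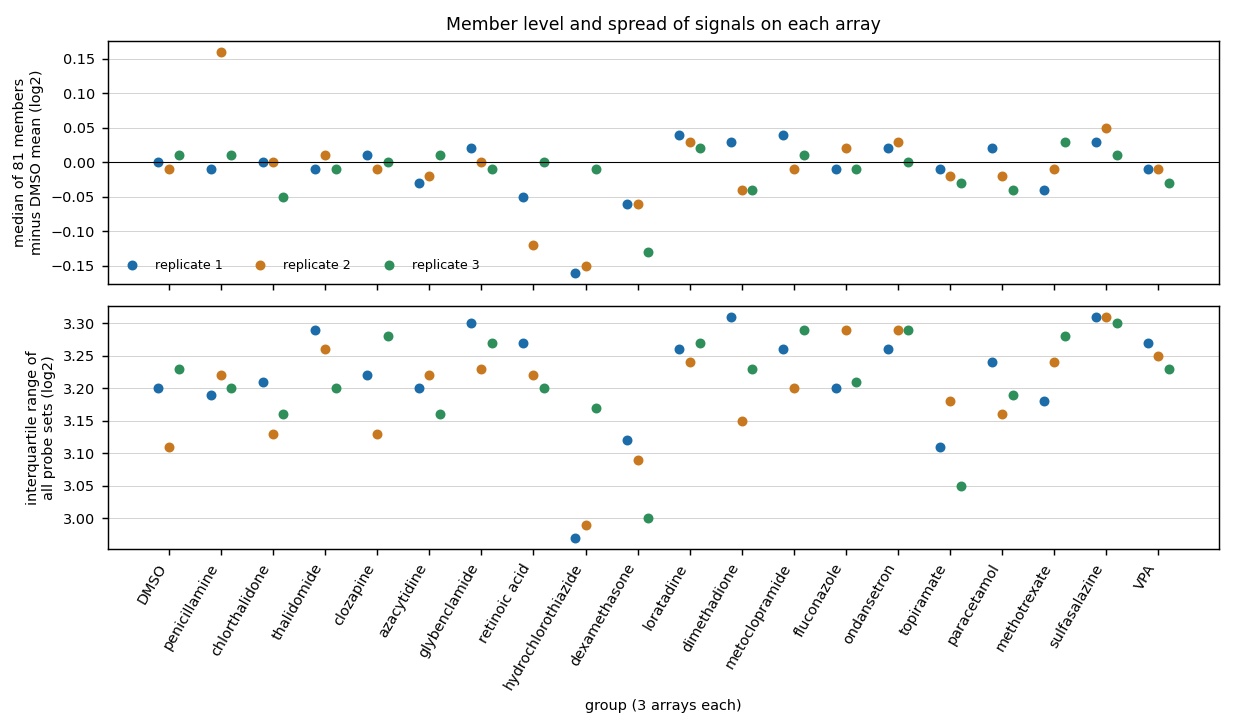
Median of the 81 subunit genes as a difference from the DMSO mean (upper panel, log2) and interquartile range of all probe sets (lower panel, log2) on each of the 60 arrays, by group; colours are replicate numbers. Hydrochlorothiazide replicates 1 and 2 (-0.16 and -0.15) and dexamethasone replicate 3 (-0.13) are lowest in the upper panel and have the 3 narrowest ranges (2.97, 2.99 and 3).

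**Figure D5:**
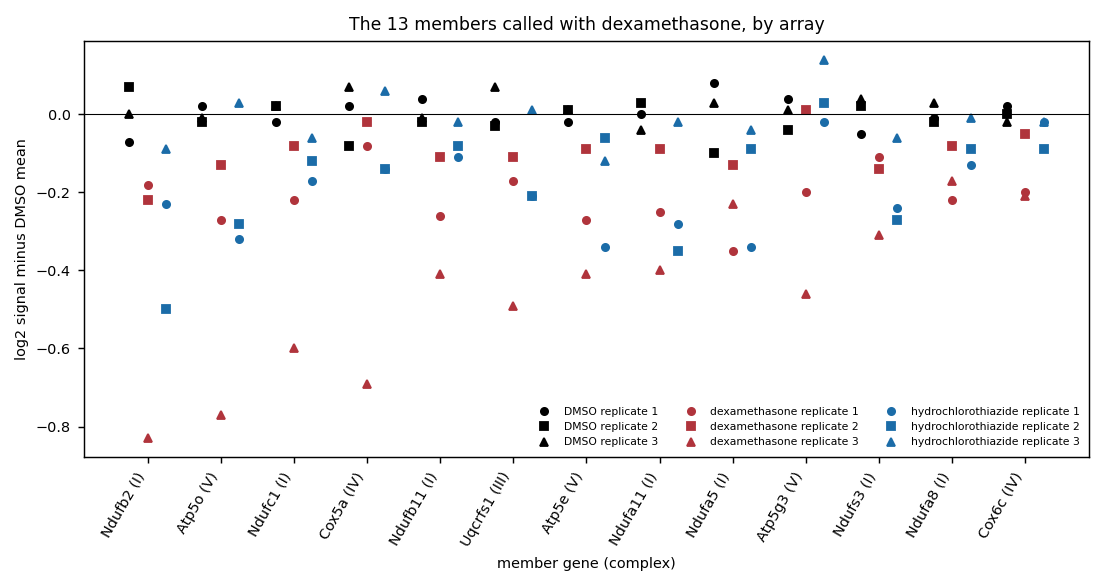
Log2 signal minus the DMSO mean (y axis) for the 13 genes called with dexamethasone (x axis, complex in brackets) on the DMSO (black), dexamethasone (red) and hydrochlorothiazide (blue) arrays; the marker shape gives the replicate. Replicate 3 is the lowest dexamethasone array for most genes, as for Ndufb2 (7.61 against 8.26 and 8.22), while Ndufa5 is lowest on replicate 1 (8.18).

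With VPA, loratadine and glybenclamide, some genes that act around the respiratory chain changed by more than any of its 81 subunit genes. These lists were taken from textbook membership, with earlier results of these data known. Their counts stand beside the share of all probe sets called, which with VPA was 15.5% higher and 11% lower, with loratadine 10.9% and 8.26%, with glybenclamide 6.79% and 2.75%, and with sulfasalazine 5.4% and 3.5%. Of 12 regulators of mitochondrial biogenesis, 4 fell with VPA and none rose: Pprc1, a coactivator, fell by 0.78 ± 0.0677 (adjusted p = 3.65e-13), Nrf1 by 0.40 ± 0.0504 (adjusted p = 8.45e-09) and Gabpa by 0.25 ± 0.0869 (adjusted p = 0.026). Paracetamol had the same counts for the 12, 4 lower and none higher (median -0.12), against 4.15% of all probe sets lower. With loratadine 4 of the 12 fell, led by Tfb2m, a mitochondrial transcription factor, at -0.36 ± 0.0598, and 9 of 42 assembly factors rose and 1 fell, led by Foxred1, a complex I assembly factor, at 0.46 ± 0.0569. With VPA 5 of the 42 rose, Timmdc1 most (0.35 ± 0.0578), and 4 fell. With glybenclamide 7 of the 42 rose, Foxred1 by 0.57 ± 0.0569 (adjusted p = 7.67e-10), and with sulfasalazine 9 rose; none fell with either drug. With VPA 18 of 77 mitochondrial ribosome genes fell and 2 rose, and 13 of 70 cytosolic ribosome genes fell and 2 rose. In glycolysis, 5 of 16 genes rose with loratadine and none fell, with the aldolase Aldoc at 0.85 ± 0.0649 (adjusted p = 1.93e-14). With VPA 3 rose, Aldoc by 0.47 ± 0.0649, and 3 fell, the glucose transporter Slc2a1 by 0.41 ± 0.0516. Of 15 tricarboxylic acid cycle genes, 3 rose with each of loratadine and VPA, and 0 and 1 fell.

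With dexamethasone the calls in these lists were falls: 6 of 42 assembly factors (Bcs1l, which inserts the Rieske protein, by 0.41 ± 0.0825, adjusted p = 0.00228), 4 of 12 regulators, 2 of 15 tricarboxylic acid cycle genes, 2 of 14 electron carriers and related genes, 1 of 16 glycolysis genes, 11 of 77 mitochondrial ribosome genes and 13 of 70 cytosolic ribosome genes. With hydrochlorothiazide 2 of the 42, 1 of the 12, 0 of the 15, 1 of the 14, 0 of the 16, 7 of the 77 and 1 of the 70 fell, in the same order of lists. None of these lists had a rise with either drug. Of all probe sets 4.74% fell with dexamethasone and 1.87% with hydrochlorothiazide. The narrow arrays described above enter these counts too.

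No subunit gene was called between the drug classes. With each drug as 1 value (10 teratogens, 9 non-teratogens), limma called 0 of the 81 genes and 0% of all probe sets, and differences ranged from -0.10 to 0.06. At an unadjusted p under 0.05 there were 3 of the 81 genes and 955 of all probe sets (4.38%). They were Cox6b2 (-0.10), Atp5g2 (-0.08) and Uqcrc1 (-0.07), lower with teratogens, and the smallest adjusted p of the 81 was 0.976.

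Drugs were also compared directly, in 171 pairs with p-values adjusted over all pairs and probe sets. Of the 171, 122 had at least 1 called subunit gene and 29 had 10 or more, 25 of them among the 35 pairs with dexamethasone or hydrochlorothiazide, which include the 3 narrow arrays. In 148 of the 171 pairs the share of the 81 genes called was below that of all probe sets, also in 12 of the 29, where the share of all ran from 6.89% to 36.3%. Chlorthalidone and hydrochlorothiazide, both diuretics with a sulfonamide group and both at 1 mM, differed in 6 of the 81 genes, against 7.48% of all probe sets. Relative to hydrochlorothiazide, chlorthalidone was higher for Ndufa7 (0.39 ± 0.104, 95% interval 0.18 to 0.60), Ndufa2 (0.36 ± 0.07, 0.22 to 0.50), Ndufa6 (0.26) and Ndufb9 (0.21) and lower for Cox4i2 (-0.18) and Cox8c (-0.24). Hydrochlorothiazide and VPA, both at 1 mM, differed in 15 genes (1 higher and 14 lower with hydrochlorothiazide, against 29% of all probe sets). Hydrochlorothiazide and paracetamol, both at 1 mM, differed in 6, all lower with hydrochlorothiazide (13.4% of all). At unequal doses, dexamethasone and VPA differed in 14 genes (1 higher and 13 lower with dexamethasone, against 28.9%) and dexamethasone and loratadine in 23 (3 higher and 20 lower, against 30.5%). Cox6a2 was called in 40 of the 171 pairs, Ndufa2 in 31 and Uqcrfs1 in 29, the 3 highest counts of the 81 genes. The count for a typical probe set is not given here. The Cox6a2 probe set was among those removed by the filter on dim probe sets.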

How the data were processed

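Total RNA of R1 cells was hybridised to 60 Affymetrix mouse gene arrays. The authors deposited 1 log2 signal per probe set and array, made with RMA per the submitters' processing notes (version and options not given in the sources used here). There are 35556 probe sets; the annotation lists 23410, of which 21789 carry a single symbol and were tested, 1621 carry several, and 12146 have no entry. Without further normalisation, limma 3.58.1 in R 4.3.3 fitted a mean per group to all 60 arrays (40 residual and 7.31 prior degrees of freedom), and each drug was compared with DMSO, with Benjamini-Hochberg adjustment within the comparison. The code was tested on simulated data. Arrays have no read depth; 3 arrays per group limit the precision (SE from 0.0393 to 0.139 on the log2 scale over the subunit genes). Classes were compared on drug means and drugs in pairs. Alternatives were quantile normalisation, a filter on dim probe sets, the 6 arrays of a drug and DMSO alone, the mean of the other 18 drugs as reference, the array interquartile range or the title's letter b as covariate, and leaving out arrays.

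The genes, lists and tests were chosen with earlier results of these data known. Values were printed for the called genes with the largest changes of a drug with 5 or more calls, genes called in most drugs, the gene with the smallest adjusted p of each complex, isoforms known from special tissues and the leading called gene of each other list. Further called genes, drugs' extremes and Atp5a1, Atp5b, Uqcrc2, Col1a1, Fn1 and Dppa3 were named after their values were seen.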

Additional observations from a re-analysis of the deposited data

How the results depend on the processing

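Of the 28 called values, none reversed direction under any alternative. These values were picked because they were called, and the alternatives reuse the same arrays, so a reversal was unlikely from the start. Ndufs8, Ndufb6 and Ndufv3 with VPA and Cox6b2, Cox6a1 and Ndufb5 with loratadine kept their calls under all alternatives run; the other calls did not. With the interquartile range as covariate 17 of the 28 lost their call, with the 6 arrays alone 20, with quantile normalisation 13, with the letter b 4, and with the mean of the other 18 drugs 2. The share of all probe sets called under each alternative is not given here. The counts below therefore do not show a change particular to the subunit genes. Counts of called genes moved as follows. With the mean of the other 18 drugs as reference they were 34 for hydrochlorothiazide (from 4), 33 for dexamethasone (from 13), 10 for retinoic acid (from 1), 10 for loratadine (from 4), 8 for penicillamine, 8 for sulfasalazine and 4 for topiramate (each from 0) and 2 for paracetamol (from 1, and without Cox6b2). With the interquartile range they were 0 for hydrochlorothiazide and dexamethasone, 12 for VPA (from 5), 6 for retinoic acid, 2 for glybenclamide (from 0) and 2 for paracetamol. With quantile normalisation they were 10 for VPA, 6 for dexamethasone, 5 for retinoic acid, 3 for paracetamol and 1 for hydrochlorothiazide. In the 6 arrays alone they were 8 for VPA and 0 for dexamethasone, hydrochlorothiazide, retinoic acid and paracetamol. With dim probe sets left out they were 7 for hydrochlorothiazide, 2 for paracetamol and 1 for ondansetron (from 0), and with the letter b 1 for ondansetron. Leaving out 1 array gave 0 to 27 for dexamethasone, 0 to 29 for hydrochlorothiazide, 3 to 6 for VPA, 4 to 5 for loratadine, 0 to 5 for retinoic acid, 0 to 2 for sulfasalazine, and 0 to 1 for paracetamol, chlorthalidone and ondansetron. An alternative chosen after seeing the data left out hydrochlorothiazide replicates 1 and 2 and dexamethasone replicate 3 together: the counts were 0 and 1. The causes of these shifts were not tested. No paired analysis was possible because the labels number no replicates, and the numbers used here name arrays in accession order.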
